A study of Mus musculus with 10 samples.

Results

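Genes that hold blood progenitors in the bone marrow and guide them to it were examined in Lin- cells, marrow depleted of mature lineages with a kit: the chemokine receptor gene Cxcr4, the integrin genes Itga4, Itga5, Itga6, Itgb1, Itgb2 and Itgb7, and the genes of 2 further surface glycoproteins, Selplg and Cd44. They were listed by name and found by gene symbol, and all 9 were among the 55359 genes of the deposited table, which gives FPKM (fragments divided by gene length and by library size). RNA had been sequenced from 5 libraries of Dhx9f/f mice (WT) and 5 of Dhx9f/f;MX1 mice (cKO). Mice of both groups carry floxed alleles of Dhx9, which encodes an RNA helicase. Only the cKO mice carry Cre under the interferon-responsive Mx1 promoter, which is active in many tissues besides blood. By the study's methods Cre was switched on with poly(I:C), a double-stranded RNA mimic, about a week before analysis. Whether the sequenced controls were also injected is not given in the sources used here, nor is age, so injection and genotype cannot be told apart if only the cKO mice had it. The labels number the libraries without tying each to an animal, while the methods count individual mice as replicates. If several libraries shared an animal, the p-values below would measure only technical spread.

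Marrow progenitors are kept in place by several receptors that act together. CXCR4 is the receptor for CXCL12, a chemokine made by marrow stromal cells, and signals through the G protein Gi to draw cells toward the niche and hold them there. Integrins are heterodimers of an alpha and a beta chain. The alpha4 chain pairs with beta1 to form VLA-4, which binds VCAM-1 and fibronectin, and with beta7 to form a receptor for MAdCAM-1. The alpha5 and alpha6 chains pair with beta1 in this setting and bind fibronectin and laminin, and beta2 is the common chain of the leukocyte integrins such as LFA-1. Selplg encodes PSGL-1, the scaffold for selectin ligands on which cells roll along vessel walls, and CD44 binds hyaluronan.

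Several facts of the whole series bear on these results. Dhx9 itself was at 65.43 to 72.42 FPKM in the libraries labelled WT and at 130.82 to 156.49 in those labelled cKO, so the targeted gene was higher where deletion was labelled. Mean values below are given ± SD over the 5 libraries of a label. Gene-level values do not show which exons were read. Groups are therefore called by their labels, and each direction below rests on them. Xist was above 1 FPKM in 3 libraries labelled WT and in 0 labelled cKO, so sex-linked transcripts were unevenly spread between the labels. Depth read from genes with 1 transcript was 13816000 to 18710000 fragments, and the least covered of the 9 genes in any library, Selplg in cKO 4, still had about 123 fragments. Cd3e, which marks T cells, was at most 0.6 FPKM and Ly6g, which marks neutrophils, at most 1.32. Other neutrophil genes were not near 0, and they went both ways. S100a9 was at 48.33 to 93.11 FPKM in WT and reached 894.75 in cKO 1. Mpo was at 973.78 to 1345.98 FPKM in WT and 49.43 to 391.92 in cKO, and Elane at 676.58 to 998.51 and 27.73 to 247.11. Over the 12 neutrophil markers, log2 fold changes (labelled cKO over WT) ran from -4.01 to 1.43. Kit, the progenitor receptor for stem cell factor, was at 36.56 to 54.36 FPKM in WT and 18.73 to 31.11 in cKO, and Cd34 was at 20.1 to 28.57 and 1.05 to 6.78. Cd48, also a stem and progenitor marker, was at 61.09 to 88.15 FPKM in WT and 29.41 to 106.63 in cKO. Its log2 fold change was -0.04, and the groups overlapped. The cKO libraries held less RNA of most lineages and more of the erythroid one. In bulk RNA, fewer cells of a type and less RNA per cell cannot be told apart. Library cKO 1 stood apart by its neutrophil markers (mean log2 5.94, against 1.41 to 4.96 in the other cKO and 4.88 to 5.32 in the WT libraries), and WT 1 by low megakaryocyte markers (3.18 against 4.53 to 5.15), and leaving out either changed no call among the 9 genes.

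Of the 9 genes, 5 were called lower with the cKO label, namely Selplg, Itgb7, Itga6, Cxcr4 and Itgb2, and 0 were called higher, also at an unadjusted p under 0.05. The other 4, Cd44, Itga5, Itgb1 and Itga4, were not called. A call needed an adjusted p under 0.05 (limma on log2(FPKM + 0.1), Benjamini-Hochberg over 18742 genes) and a fold change of at least 2. By that rule 16.8% of all genes tested were lower and 4.6% higher. In 6 of the 9, these 5 and Cd44, every library labelled cKO lay below every library labelled WT, which held for 21.6% of all genes tested. The median log2 fold change of the 9 was -1.19, beside -0.11 over all genes tested. Quantile normalization moved the latter to 0.10, with 2245 genes lower and 1581 higher in place of 3153 and 862, and kept each of the 9 on its side of the threshold. All 9 genes passed the filter on low values in both groups.

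**Figure D1:**
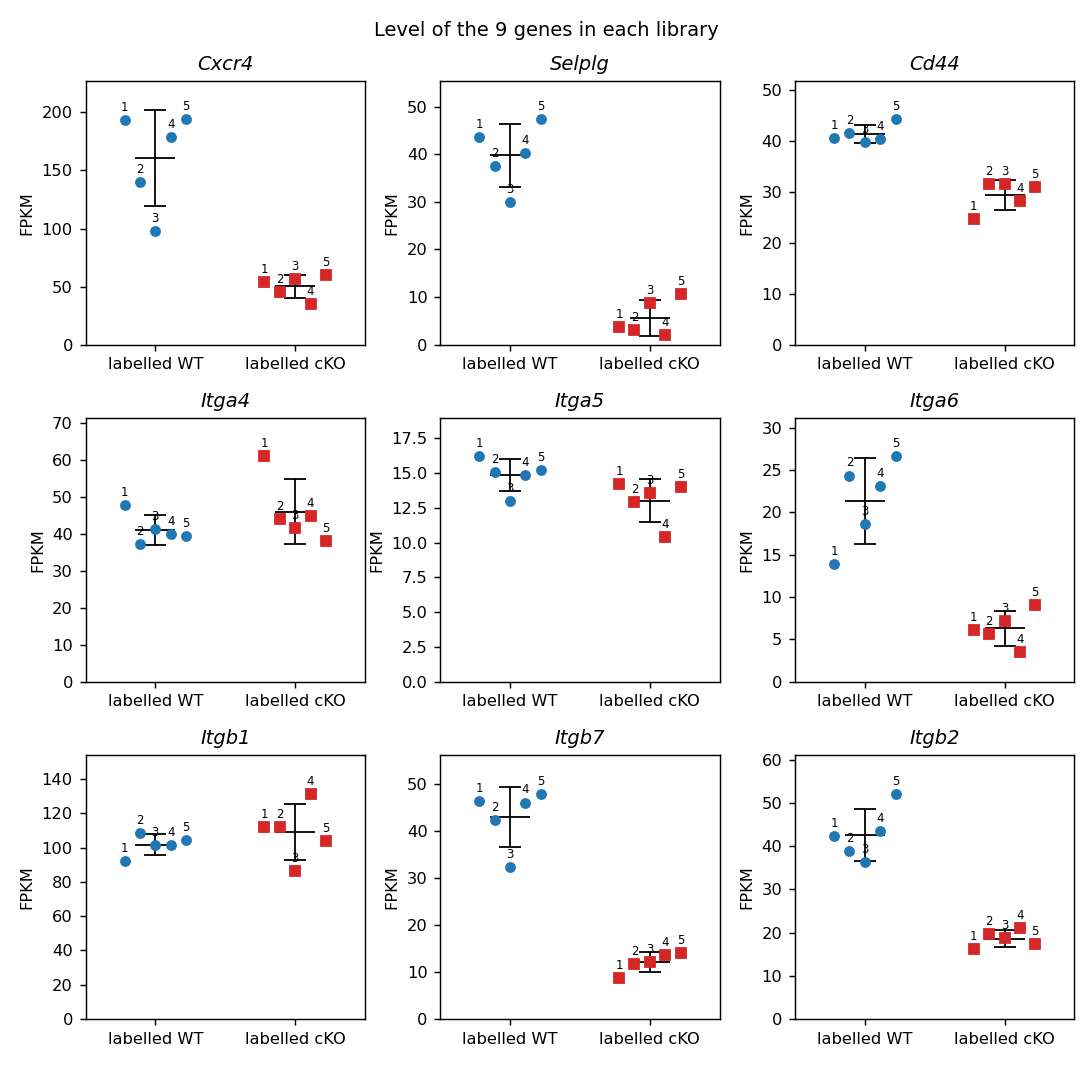
FPKM of each of the 9 genes (vertical axis, from 0) in the 5 libraries labelled WT (blue circles) and the 5 labelled cKO (red squares). Numbers are replicate numbers, and black bars are mean and SD. The groups do not overlap for Cxcr4, Selplg, Cd44, Itga6, Itgb7 and Itgb2, and overlap for Itga4, Itga5 and Itgb1.

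**Figure D2:**
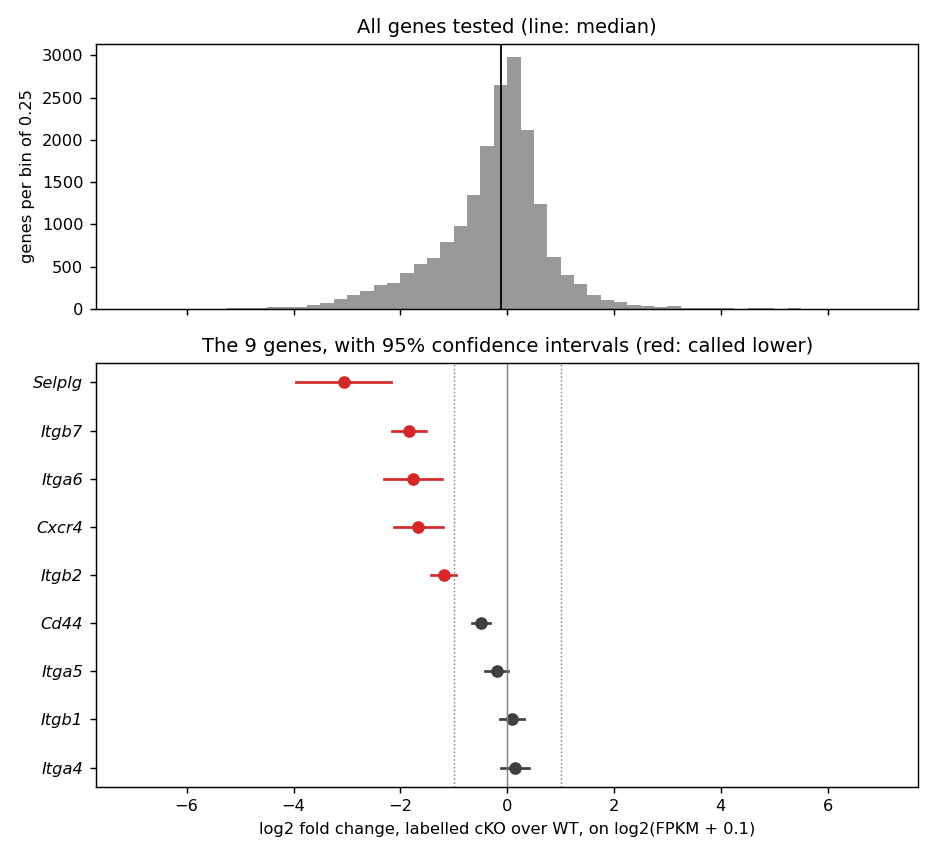
The upper panel is a histogram of the log2 fold change (labelled cKO over WT) of the 18742 genes tested, in bins of 0.25, with their median of -0.11 as a line. The lower panel gives the 9 genes with 95% confidence intervals from limma, where red marks the 5 called lower and dotted lines mark a fold change of 2 in either direction.

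The windows around the transcription start of these genes are shown because members that share a protein complex went different ways: beta7 and beta1 compete for alpha4, and Itgb7 fell while Itgb1 and Itga4 were not called. Cxcr4 is shown as the receptor gene that fell. The sequences are RefSeq's, on build GRCm38.p6, 5′ to 3′ on the gene's own strand, and are the 250 bases before the annotated start. Capitals mark exact matches, on either strand, to 4 motifs that were chosen from general knowledge. The core of PU.1 sites was searched as GAGGAAGT. The core of RUNX sites was searched as TGTGGT. For the GC box the letters were GGGCGG. For the GATA factors they were AGATAA.
Itgb7, chr15:102231936-102232185, minus strand: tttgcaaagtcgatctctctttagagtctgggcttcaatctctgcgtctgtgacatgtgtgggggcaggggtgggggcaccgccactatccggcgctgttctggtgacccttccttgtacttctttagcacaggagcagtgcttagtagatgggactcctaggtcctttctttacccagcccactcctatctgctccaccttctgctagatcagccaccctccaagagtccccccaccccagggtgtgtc
Itgb1, chr8:128685404-128685653, plus strand: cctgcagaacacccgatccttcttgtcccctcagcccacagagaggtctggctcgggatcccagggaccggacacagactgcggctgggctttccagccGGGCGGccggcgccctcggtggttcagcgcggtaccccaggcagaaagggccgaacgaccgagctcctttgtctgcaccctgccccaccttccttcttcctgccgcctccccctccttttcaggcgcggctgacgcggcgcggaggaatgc
Itga4, chr2:79255176-79255425, plus strand: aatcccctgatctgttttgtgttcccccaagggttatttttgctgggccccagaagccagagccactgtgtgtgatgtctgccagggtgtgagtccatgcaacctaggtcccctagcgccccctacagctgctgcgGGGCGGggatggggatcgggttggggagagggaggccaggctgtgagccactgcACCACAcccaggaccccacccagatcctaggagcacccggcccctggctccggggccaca
Cxcr4, chr1:128592300-128592549, minus strand: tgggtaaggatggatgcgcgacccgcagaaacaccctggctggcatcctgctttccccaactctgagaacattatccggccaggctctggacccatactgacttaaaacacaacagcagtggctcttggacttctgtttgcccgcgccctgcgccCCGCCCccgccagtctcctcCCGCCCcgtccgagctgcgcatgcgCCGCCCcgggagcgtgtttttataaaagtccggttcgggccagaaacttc

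The motifs were searched over the full windows of 300 bases, which run 50 bases past the start. The table held 6 of the 9 genes, and Itga6, Itgb2 and Selplg were not in it. GAGGAAGT was found in 1 of the 6, Itgb7, on the opposite strand over the first 8 transcribed bases (chr15:102231917-102231946 with its flanks). It is shown as the match with its flanks.
Itgb7 start site: cagggtgtgtcACTTCCTCctctgctgcct
Of all 32851 windows in the table, 3.2% held this motif. TGTGGT was found in Itga4 alone (16.8% of all windows) and AGATAA in Cd44 alone (11.2%). GGGCGG was found in Cxcr4, with 3 matches, and in Itga4, Itga5, Itgb1 and Cd44 (35.7% of all windows). A match is a description of these letters and does not show that a factor binds there.

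Cxcr4 (ENSMUSG00000045382; chromosome 1 of GRCm39 from 128515936 to 128520044, minus strand) encodes the receptor that senses CXCL12. Its level was 193.2, 140.15, 97.74, 178.99 and 194.05 FPKM in WT 1 to 5 and 54.19, 45.59, 56.38, 34.75 and 59.58 FPKM in cKO 1 to 5. The lowest WT library, number 3, was still above the highest labelled cKO, number 5. The mean was 161 ± 41.5 against 50.1 ± 10.03 FPKM. This is a log2 fold change of -1.66 (SE 0.206; limma adjusted p = 1.66e-04), or 3.16-fold lower, and the two-sided exact permutation p was 0.00794. That is the least a split of 10 libraries into 5 and 5 can reach, and Selplg, Cd44, Itga6, Itgb7 and Itgb2 had it too. Cxcr4 had the highest mean of the 9 genes in WT and ranked behind Itgb1 in cKO. The ranges of Cxcr4 and Itgb1 overlapped in WT, where Cxcr4 was the higher in 4 of 5 libraries, and were apart in cKO.

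Selplg (ENSMUSG00000048163; chromosome 5 from 113956597 to 113970705, minus strand), the gene of the selectin ligand scaffold PSGL-1, fell furthest. Its level was 43.67, 37.55, 30.02, 40.16 and 47.33 FPKM in the WT libraries and 3.69, 3.09, 8.71, 1.93 and 10.65 FPKM in the libraries labelled cKO. Every library labelled cKO was below the lowest WT library, but the cKO libraries were uneven, with numbers 3 and 5 above the rest. The mean went from 39.7 ± 6.57 to 5.61 ± 3.83 FPKM, a log2 fold change of -3.06 (SE 0.406; limma adjusted p = 2.20e-04) or 8.36-fold. The coefficient of variation was 68.2% in cKO, the largest of the 9 genes in either group, against 16.5% in WT.

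Cd44 (ENSMUSG00000005087; chromosome 2 from 102641486 to 102732010, minus strand), the hyaluronan receptor gene, moved far less. It was at 40.64, 41.65, 39.86, 40.46 and 44.3 FPKM in WT and 24.65, 31.58, 31.5, 28.17 and 31.01 FPKM in cKO, so the groups were apart but close. The log2 fold change was -0.50 (SE 0.0760; limma adjusted p = 4.55e-04), below the fold change limit, with a 95% confidence interval of -0.67 to -0.33. On adjusted p alone Cd44 was the sixth of the 9 genes called lower, where 28.3% of all genes tested were.

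Of the alpha chains, Itga4 and Itga5 did not pass the test. Itga4 (ENSMUSG00000027009; chromosome 2 from 79085660 to 79163467, plus strand), the chain shared by VLA-4 and the alpha4beta7 integrin, was at 47.79, 37.22, 41.18, 39.99 and 39.28 FPKM in WT and 60.91, 43.93, 41.67, 44.89 and 38.18 FPKM in cKO. The groups overlapped, and library cKO 1 was the highest. The log2 fold change was 0.15 with a 95% confidence interval of -0.11 to 0.41 (adjusted p = 0.347, limma). Itga5 (ENSMUSG00000000555; chromosome 15 from 103252713 to 103275270, minus strand), the fibronectin receptor chain, was at 16.2, 15.09, 13.02, 14.88 and 15.22 FPKM in WT. It was at 14.22, 12.91, 13.59, 10.39 and 14.01 FPKM in cKO, a log2 difference of -0.20 with an interval of -0.41 to 0.02 (adjusted p = 0.125, limma). Both intervals lie within a fold change of 2 in either direction.

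Itga6 (ENSMUSG00000027111; chromosome 2 from 71575960 to 71689757, plus strand), the laminin receptor chain, is the alpha chain of the list that fell. Its level was 13.88, 24.36, 18.62, 23.16 and 26.61 FPKM in WT and 6.13, 5.61, 7.19, 3.56 and 9.1 FPKM in cKO. All libraries labelled cKO lay below all WT libraries, of which number 1 was the lowest. The mean went from 21.3 ± 5.08 to 6.32 ± 2.04 FPKM, a log2 fold change of -1.77 (SE 0.244; limma adjusted p = 2.77e-04). Platelet-lineage RNA was also lowest in WT 1, where Pf4, a platelet chemokine gene, was at 107.99 FPKM against 253.74 to 416.35 in the other WT libraries. Its part in the Itga6 result was not tested. Without WT 1, the log2 fold change of Itga6 was -1.91.

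Itgb1 (ENSMUSG00000025809; chromosome 8 from 129411876 to 129460618, plus strand), the common beta chain of the VLA integrins, was not called. It was at 92.08, 108.64, 101.47, 101.76 and 104.61 FPKM in WT and 112.29, 112.24, 86.6, 131.59 and 103.94 FPKM in cKO. The ranges overlapped, with the lowest and the highest of the 10 values both in libraries labelled cKO. The log2 fold change of 0.09 (95% confidence interval -0.13 to 0.31, adjusted p = 0.477, limma) was not distinguishable from 0, and it was -0.01 with quantile normalization.

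The other beta chains were both lower. Itgb7 (ENSMUSG00000001281; chromosome 15 from 102124429 to 102140379, minus strand), which competes with beta1 for the alpha4 chain, was at 46.42, 42.3, 32.25, 46.08 and 47.98 FPKM in WT and 8.66, 11.66, 12.19, 13.64 and 14.01 FPKM in cKO. The highest cKO library was below the lowest WT library by more than the whole cKO range. The log2 fold change was -1.83 (SE 0.146; limma adjusted p = 4.03e-05), or 3.57-fold lower. Of the 6 start windows searched, that of Itgb7 was the one with a PU.1 core motif, which 3.2% of all windows held. No window was at hand for Itga6, Itgb2 and Selplg, which were also called lower. The part of PU.1 in the Itgb7 result was not tested. Itgb2 (ENSMUSG00000000290; chromosome 10 from 77366086 to 77401542, plus strand), the leukocyte integrin chain, was at 42.39, 38.81, 36.26, 43.64 and 52.2 FPKM in WT and 16.15, 19.77, 18.72, 21.15 and 17.35 FPKM in cKO. The groups were again apart, and the cKO libraries were tight, with a coefficient of variation of 10.5%. The log2 fold change was -1.19 (SE 0.106; limma adjusted p = 4.89e-05), with a 95% confidence interval of -1.42 to -0.95 that reaches past the fold change limit.

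Because FPKM is per length, genes of 1 library can be set side by side. The gene lengths used are not given in the sources used here, and levels, ranks and shares between genes rest on them. Of the summed FPKM of the 3 beta chain genes, Itgb1 made up 54.4% ± 3.91 in WT and 77.9% ± 3.01 in cKO. Itgb7 made up 22.9% ± 2.50 and 8.67% ± 1.72, and Itgb2 22.7% ± 1.95 and 13.4% ± 1.58. Among the 3 alpha chain genes, the share of Itga4 was 53.2% ± 5.62 in WT and 70.1% ± 5.79 in cKO. That of Itga6 was 27.5% ± 6.09 and 9.79% ± 3.47, while that of Itga5 was 19.2% ± 1.09 and 20.1% ± 2.42. Within these 6 chains, the RNA was thus weighted toward the VLA-4 pair, Itga4 and Itgb1, in the libraries labelled cKO, while neither gene of the pair was called. The shares leave out chains outside the list, some as abundant. Itga2b averaged 63.3 FPKM in WT and 16.5 in cKO, and Itgb3 64.3 and 14.7.

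**Figure D3:**
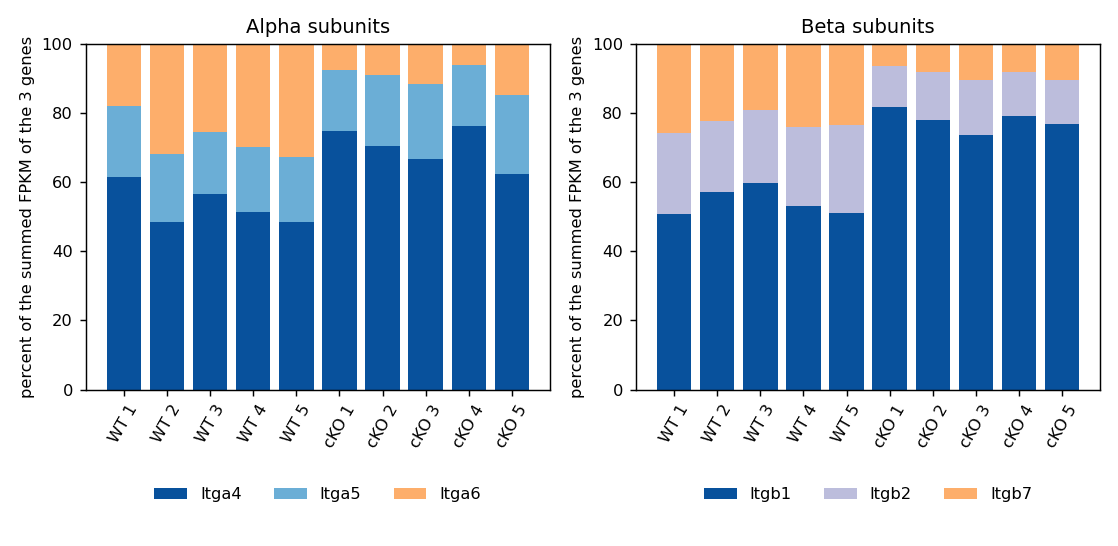
Stacked bars of the percent of the summed FPKM held by each of the 3 alpha chain genes (left) and each of the 3 beta chain genes (right), 1 bar per library. Itgb1 takes 50.9% to 59.7% of the beta sum in WT and 73.7% to 81.9% in cKO.

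Ratios within a library do not move with that library's scaling, and 6 were compared by exact two-sided permutation tests, adjusted by Benjamini-Hochberg over the 6. Itgb1 stood at 2.38 times Itgb7 in WT and 9.06 times in cKO, a log2 difference of 1.93 (exact permutation p = 0.00794, adjusted p = 0.00952). The ratio was higher in 5 of 5 cKO libraries than in any WT library. Itgb1 over Itgb2 went from 2.40 to 5.82 and Itga4 over Itga6 from 1.96 to 7.40, with the same exact permutation p. Selplg and Cd44 were at nearly equal levels in WT, with a ratio of 0.950, and at 0.161 in cKO. Cxcr4 went from 3.80 times Itga4 to 1.09 times. These 5 ratios did not overlap between the groups. Itga4 over Itga5 went from 2.75 to 3.48 (exact permutation p = 0.0556, adjusted p = 0.0556) and did not pass. It passed without WT 3, at a log2 difference of 0.39, and without cKO 5, at 0.43 (adjusted p = 0.0317 in both, exact permutation), against 0.34 with all libraries.

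**Figure D4:**
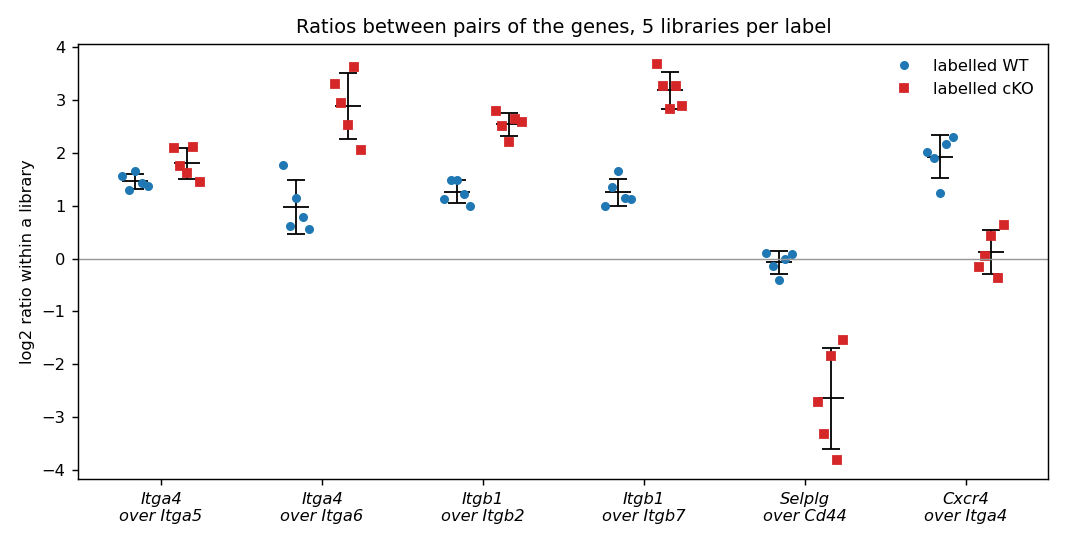
Log2 ratios between pairs of the genes within each library (points; blue circles labelled WT, red squares labelled cKO), with mean and SD as black bars. The groups are apart for 5 ratios and overlap for Itga4 over Itga5.

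Within WT, 5 of the 9 genes lay close together. Itgb7, Itgb2, Cd44, Itga4 and Selplg had means of 39.7 to 43.0 FPKM, and each neighbouring pair overlapped. Itgb1 was above this cluster and Itga6 and Itga5 below it in every WT library. In cKO the cluster had spread out, in the order Itga4 (45.9), Cd44 (29.4), Itgb2 (18.6), Itgb7 (12.0) and Selplg (5.61 FPKM). Of these, Itga4, Cd44 and Itgb2 had ranges that were apart. Itgb2 was also apart from Itga5 below it, while Itga5, Itgb7, Itga6 and Selplg each overlapped with the next.

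The libraries of 1 label did not vary alike. In WT, library 3 was the lowest for 6 of the 9 genes (Cxcr4, Itga5, Itgb2, Itgb7, Selplg and Cd44) and library 5 the highest for 6. WT 3 also had the highest summed erythroid marker level of the WT libraries, at 2614 FPKM, where the lowest was 1311. The part of erythroid RNA in these values was not tested. In cKO, library 5 was the highest for 4 genes, among them Selplg, Cxcr4 and Itga6, and library 4 the lowest for 4, among them these genes again. The mean log2 of 12 monocyte and dendritic cell markers was 3.16 and 3.59 in cKO 3 and 5, the libraries with the highest Selplg, and 1.48, 0.48 and -0.42 in cKO 1, 2 and 4. It was 5.20 to 5.65 in WT. In this list 11 of 12 genes were called lower, and the summed level was 1043 to 1800 FPKM in WT and 13.8 to 325 in cKO. Of its defining markers, Lyz2 was at 460.35 to 918.13 FPKM in WT and 2.09 to 124.82 in cKO. Csf1r was at 19.6 to 30.97 FPKM in WT and 0.09 to 6.09 in cKO, and both were lowest in cKO 4. Itgb2 was ordered otherwise, at 16.15, 19.77, 18.72, 21.15 and 17.35 FPKM in cKO 1 to 5, so highest in cKO 4. The part of monocytes and dendritic cells in the Selplg, Cxcr4 and Itgb2 results was not tested. Ptprc, the pan-leukocyte CD45 gene, also fell, from 13.5 ± 2.98 to 4.11 ± 1.20 FPKM, a log2 fold change of -1.72 (adjusted p = 1.73e-04, limma). The megakaryocyte markers were called lower in 10 of 10 genes, and their summed level was 277 to 1360 FPKM in WT and 87.8 to 185 in cKO. The erythroid markers were called higher in 5 of 12, with summed levels of 1311 to 2614 and 3057 to 4804 FPKM. Beside these counts for the 3 marker lists, 16.8% of all genes tested were lower and 4.6% higher. Of 8 proliferation genes, limma called 0 in either direction (at an unadjusted p under 0.05, 4 were higher and 1 lower), with Mki67 at 169.56 to 211.86 and 208.17 to 282.68 FPKM.

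Most other integrin chains that could be tested were called lower. Of 20 further subunit genes, 14 passed the filter on low values, which used the mean over all 10 libraries. Of these, limma put 12 below and 0 above (0 also at an unadjusted p under 0.05), where 16.8% of all genes were lower. The list median was -2.16, beside -0.11 over all genes. Itga8 and Itga9 passed the filter through WT, with means of 0.442 and 0.334 FPKM against 0.072 and 0.078 in cKO, so they could hardly be called higher. With a filter at 1 FPKM, 8 genes of this list were called lower. Itgb5 went from 7.42 ± 2.26 to 0.766 ± 0.602 FPKM, Itga1 from 4.02 ± 1.46 to 0.414 ± 0.359 and Itga2, a collagen receptor chain, from 5.03 ± 0.987 to 0.786 ± 0.351. Partners of Itgb2 were on this list. Itgal, the alpha chain of LFA-1, was at 21.34 to 32.27 FPKM in WT and 1.86 to 8.85 in cKO, and Itgam, the CD11b gene, at 2.62 to 3.94 and 0.05 to 1.84. The log2 fold changes were -2.58 and -2.47 (adjusted p = 3.98e-04 and 0.00772, limma), beside -1.19 for Itgb2. The platelet integrin chains Itga2b and Itgb3 had log2 fold changes of -1.94 and -2.06. Itgae and Itga10 were not called, both at a mean under 1 FPKM.

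Among genes that switch integrins on and tie them to actin, 8 of 28 tested were lower and 1 was higher, or 28.6% and 3.57% where all genes gave 16.8% and 4.6%. The list median was -0.71, with -0.11 over all genes. Rasgrp2, which activates the small GTPase Rap1 upstream of integrins, went from 16.4 ± 2.02 to 2.34 ± 1.54 FPKM (log2 fold change -3.02; limma adjusted p = 2.50e-04). Zyx, a focal adhesion protein gene, went from 32.7 ± 5.62 to 6.40 ± 2.89 FPKM and Actn1, an actin cross-linker gene, from 8.07 ± 2.63 to 1.99 ± 1.25. The 1 gene called higher was Ptk2, for focal adhesion kinase, at 0.96 to 1.76 FPKM in WT and 1.97 to 5.75 in cKO (log2 fold change 1.63, adjusted p = 0.00112, limma). Tln1 and Fermt3, for talin and kindlin-3, which bind beta chain tails directly, had log2 fold changes of -0.86 and -0.35 and were not called.

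Of 17 genes for selectins and the making of their ligands, 6 were lower and 2 higher (35.3% and 11.8%, against 16.8% and 4.6% of all genes tested), and the list median was -0.39, beside -0.11 over all genes. Fut7, which adds the fucose that selectins recognise on PSGL-1, was at 7.39 to 13.96 FPKM in WT and 0.49 to 3.09 in cKO, a log2 fold change of -3.33 (adjusted p = 1.66e-04, limma). Sele was low in both groups, at 2.12 ± 0.750 and 0.314 ± 0.317 FPKM. The 2 genes called higher, St3gal6 and St3gal4, encode sialyltransferases that also act on selectin ligands. St3gal6 went from 7.53 ± 2.31 to 32.5 ± 10.3 FPKM and St3gal4 from 22.7 ± 1.37 to 52.4 ± 10.3, and for both every cKO library was above every WT library.

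Around CXCR4, 9 of 25 genes for signalling and other retention receptors were lower and 1 was higher, which is 36% and 4% beside the 16.8% and 4.6% of all genes (list median -0.68, all genes -0.11). The chemokine receptor genes Cx3cr1 and Ccr2 had log2 fold changes of -4.07 and -3.46, and Rgs2, a regulator of G protein signalling, one of -3.53 (adjusted p = 2.10e-04, 0.00212 and 3.48e-04, limma). Ccr2 was at 33.81 to 64.31 FPKM in WT and 3.1, 2.5, 11.37, 0.73 and 17.32 FPKM in cKO 1 to 5. Rgs16, the 1 gene called higher, was at most 0.34 FPKM in any library. Ackr3, for the other CXCL12 receptor, was at most 0.09 FPKM.

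Of 22 tested genes for CD44 partners and other adhesion molecules, 11 were lower and 2 higher, so 50% and 9.09% as compared with 16.8% and 4.6% overall (list median -1.22, all genes -0.11). Lyve1, among those called lower, passed the filter on low values through WT, with a mean of 0.676 FPKM against 0.04 in cKO. With a filter at 1 FPKM, 10 genes of this list were called lower. Podxl, for the sialomucin podocalyxin, was at 0.21 to 5.41 FPKM in WT and 40.6 to 152.9 in cKO, a log2 fold change of 6.69. The other gene called higher was Cd81, a tetraspanin gene, from 32.4 ± 2.81 to 70.4 ± 12.95 FPKM. Cd93 and Alcam had log2 fold changes of -3.98 and -3.34. Of the niche ligand genes, many of which stromal and endothelial cells express, 7 of 13 passed the filter on low values, 5 being lower and 1 higher. With 7 genes tested these are 71.4% and 14.3%, next to 16.8% and 4.6% of all genes (list median -1.92, all genes -0.11). Kitl passed the filter through WT, with a mean of 0.324 FPKM against 0.08 in cKO, so it could hardly be called higher. A filter at 1 FPKM drops Kitl and Cxcl12, with means of 0.202 and 0.93 FPKM over all libraries. With it, 4 niche ligand genes were called lower, not all of them among the 5 above. Cxcl12, the ligand of CXCR4, was at 0.59 to 3.19 FPKM in WT and 0.03 to 0.4 in cKO, and Madcam1, a ligand of alpha4beta7, was at most 0.22 FPKM in any library. Fn1, for fibronectin, which monocytes also express, was at 32.52 to 104.92 and 0.13 to 10.95 FPKM, a log2 fold change of -5.58 (adjusted p = 5.87e-04, limma). Angpt1 went from 16.3 ± 2.10 to 3.60 ± 1.22 FPKM and Vcam1 from 9.06 ± 2.61 to 2.79 ± 1.86. Lama5, the gene called higher, overlapped between groups. The stromal and endothelial markers were also low, with a summed level over 12 genes of 15.0 to 22.6 FPKM in WT and 5.64 to 11.9 in cKO, and their part in the ligand values was not tested.

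**Figure D5:**
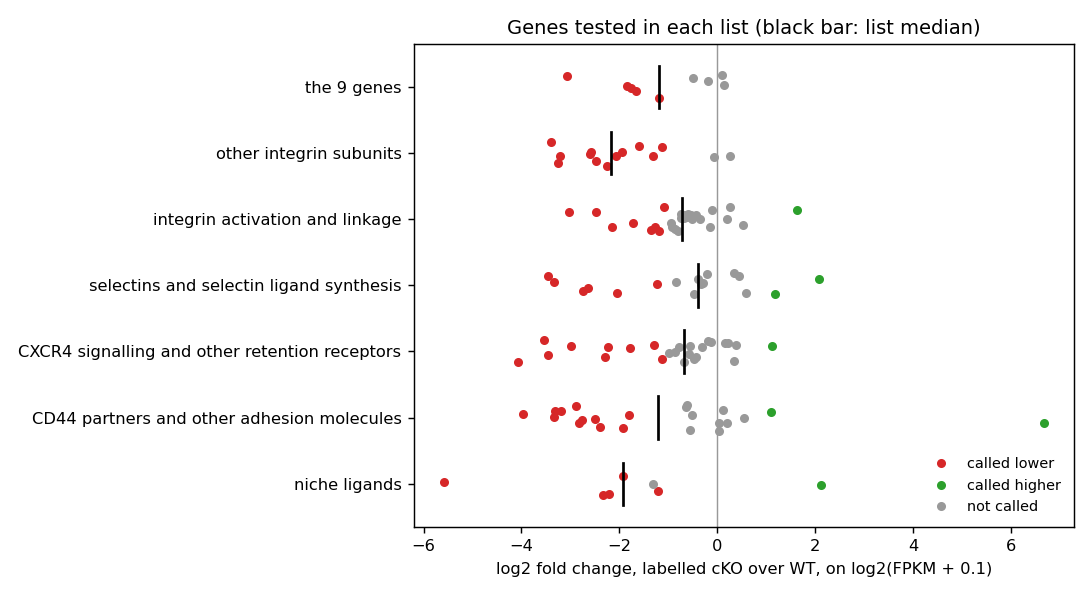
Log2 fold change (labelled cKO over WT) of each gene tested in the 9-gene list and 6 pathway lists, with called genes in red (lower) and green (higher) and list medians as black bars. In the other integrin subunits 12 of 14 genes are called lower, and in the selectin list 6 of 17 are lower and 2 higher.

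Profiles over the 10 libraries were compared between each of the 9 genes and 12353 genes that averaged 1 FPKM or more, as the root mean square difference of log2(FPKM + 0.1) after centring each gene on its own mean. The difference between the labels was left in, so genes with like fold changes come out near each other. For Itgb7 the nearest gene was Spi1, which encodes the transcription factor PU.1, at 0.10 on the log2 scale, followed by Arid5a at 0.15. A link between the 2 was not tested. Selplg was nearest to Anxa6 (0.11) and Thbd (0.14), and Cxcr4 to Sik1 (0.12) and Rcsd1 (0.13). Itga6 had Nlrx1 (0.14) and Pdlim7 (0.19) as its nearest genes, and Itgb2 had Mfng and Zfp839 (0.13 each). Of the genes that were not called, Cd44 was nearest to Capza2 and Terf2 (0.06 each), Itga4 to Dcaf8 (0.04) and Zranb1 (0.05), Itga5 to Trim11 (0.03) and Tle4 (0.06), and Itgb1 to Spcs1 (0.08) and Sil1 (0.09).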

How the data were processed

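Reads were cleaned (Cutadapt 1.9.1) and aligned to GRCm39 with HISAT2 2.0.1 by the authors, whose processing notes also name HTSeq 0.6.1. The deposited values are the authors' gene-level FPKM with 2 decimals. The annotation and gene lengths behind them are not given in the sources used here. FPKM are not counts, so the study's DESeq2 test was not run. All 10 columns were mapped by name to genotype and replicate number. Symbols and GRCm39 positions came from GENCODE vM39, which held 54749 of the 55359 identifiers. Depth was read from genes with 1 transcript, whose values of up to 20 fragments were whole within 0.2 in 94.7% to 96.4% of cases. Fragment numbers use exon lengths and are approximate.

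The test was limma 3.58.1 (lmFit, eBayes with trend, R 4.3.3) on log2(FPKM + 0.1) for 18742 genes averaging 0.1 FPKM or more, two-sided, which understates changes of low genes. It was tested on simulated data. Permutation tests used scipy 1.17.1. The 9 genes, the 6 pathway lists and 10 marker lists, from general knowledge, were chosen with earlier results of these data known. Genes named were the 9, Dhx9, Ptprc, up to 3 of each pathway list by change (those called, not overlapping, at a mean of at least 1 FPKM), up to 2 of each marker list by level and the 2 nearest profiles. Itgal, Itgam, Itga2b, Itgb3, Itga8, Itga9, Itgae, Itga10, Ptk2, Tln1, Fermt3, St3gal4, St3gal6, Rgs16, Ackr3, Cd81, Lyve1, Cxcl12, Kitl, Madcam1, Lama5, Csf1r, S100a9, Cd34, Procr, Mecom, Emcn, Igll1, Blnk, Ncr1 and the lineage markers of the sort were named after their values were seen. Some genes of these lists are counted but not reported here by name. In 1 marker list, 1 gene had no row. Marker lists not described in the report are summarised with the limits.

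Settings tried in turn were leaving out each library, blocking on replicate number, a covariate for Xist above 1 FPKM, calls on adjusted p alone, quantile, equal-sum or median-ratio scaling, eBayes without trend, a filter at 1 FPKM or none, and pseudocounts of 0.01 and 1.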

Additional observations from a re-analysis of the deposited data

Results flagged for a closer look

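Dixon's outlier criterion was applied to 70 sets of 5 values, for the genes and ratios named, within each label. It picked out 3, and 3.5 would be picked out by chance. Podxl was at 5.41 FPKM in WT 3, where the remaining WT libraries had 0.21 to 1.43. Sele was at 3.44 FPKM in WT 1 against 1.6 to 1.93. Fn1 was at 10.95 FPKM in cKO 5 against 0.13 to 2.97 in the others with that label. None of the 9 genes and none of the 6 ratios between them had such a library.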

How the results depend on the processing

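Under the 20 other settings of limma, each of the 9 genes stayed on its side of the call, and 5 genes were called lower and 0 higher in every one. On adjusted p alone, 6 were lower, 5300 of all genes lower and 3138 higher, and of the 113 pathway genes tested 79 lower and 14 higher in place of 51 and 7. With a pseudocount of 1, 1486 of all genes were lower and 356 higher, and over the 12353 genes averaging 1 FPKM or more 1827 and 462. Quantile normalization called 1581 higher, 41.3% of calls in place of 21.5%, and turned Itgb1 to a log2 fold change of -0.0135. With each library left out in turn, all genes called lower were 2892 to 3268, the 9 genes called lower 5 in each case, and Itga4 over Itga5 was 0.27 to 0.43. The cause was not tested. Same-numbered libraries of the 2 labels had deviations correlated at -0.01 to 0.12 across genes, and 3 of 5 WT libraries correlated best with their own number. Such small correlations cannot settle whether the numbers pair the libraries. With the replicate number as a block, 3107 of all genes were lower and 857 higher. With 5 pairs, the exact sign-flip permutation test of the ratios cannot go below p = 0.0625, so with the replicate block the 5 ratios that had passed did not (adjusted p = 0.075), at unchanged log2 differences of 1.91 (Itga4 over Itga6), 1.28 (Itgb1 over Itgb2), 1.93 (Itgb1 over Itgb7), -2.57 (Selplg over Cd44) and -1.81 (Cxcr4 over Itga4).

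Marker lists not counted above also held genes called lower, where 16.8% of all genes tested were lower and 4.6% higher. These were 5 of 12 neutrophil genes, 8 of 10 of mast cells, basophils and eosinophils, 4 of 7 tested B-lymphoid and 6 of 10 T and NK genes. A further 7 of 12 stem and progenitor and 6 of 10 tested stromal and endothelial genes were called lower, and 1 stromal gene higher. Some genes of these lists passed the filter on low values through WT, so they could hardly be called higher. Among them, Procr, Mecom and Emcn had means of 0.64, 0.276 and 0.28 FPKM in WT and 0.048, 0.082 and 0.026 in cKO. Igll1, Blnk and Ncr1 had 0.478, 0.578 and 1.35 FPKM in WT and 0.082, 0.098 and 0.082 in cKO. The neutrophil genes were split, with log2 fold changes of -4.01 to 1.43. Depth limits genes under about 0.160 to 0.217 FPKM at 1000 bp, where a library holds 3 fragments or fewer, and no value of the 9 genes was near this.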
